A study of Homo sapiens with 8 samples.

Results

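The DNA mismatch repair genes MSH6, MSH3, PMS2, PMS1, MLH3 and EXO1 were followed in SK-UT-1 cells, a long-established line grown from a human leiomyosarcoma of the uterus. The 6 genes were taken by name from the 60282 genes listed in the expression table. None of the 6 passed the threshold for a change after TP-472, an inhibitor of the bromodomain protein BRD9, although 26.9% of all tested genes did. MSH6, MSH3 and EXO1 read above every vehicle library in all 4 TP-472 libraries, PMS2 read below every vehicle library, and PMS1 and MLH3 overlapped with vehicle. Such separation was common, as the groups did not overlap for 45.4% of all tested genes. The difference in each of the 6 genes was smaller than 1.5-fold, and 1 vehicle library that stood apart from the other 7 moved the values of all 6 genes. PMS1 overlapped with vehicle through that library alone. Without it PMS1 read lower in all 4 TP-472 libraries (log2 fold change −0.45), still short of 1.5-fold. In that comparison the groups did not overlap for 58.5% of all tested genes.

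Mismatch repair removes base mispairs and small loops of unpaired bases that DNA polymerases leave behind. A MutS heterodimer recognises the lesion: MSH6 and MSH3 are alternative subunits that join the same partner, MSH6 for mispairs and the smallest loops and MSH3 for larger loops. A MutL heterodimer is then recruited, in which PMS2, PMS1 and MLH3 likewise take turns with a common partner. PMS2 carries an endonuclease that nicks the new strand, MLH3 also carries one and acts mainly in meiotic crossing over, and PMS1 has no such activity. EXO1 is the exonuclease that degrades the nicked strand, after which RPA covers the gap, polymerase delta fills it with PCNA and RFC, and a ligase seals it. Loss of this pathway gives microsatellite instability in endometrial and other tumours.

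SK-UT-1 cells received 5 µM TP-472 or DMSO as vehicle for 48 h, and RNA was sequenced in 4 libraries per group. All 8 libraries come from this single line, which limits them as a model of the tumour. Estimated counts totalled 34433596, 36634184, 32574716 and 36407850 in vehicle libraries 1 to 4, and 38545695, 37674588, 37427131 and 36246466 in TP-472 libraries 1 to 4. The methods of the study speak of biological replicates for its experiments in general. Nothing in the labels says that the libraries of a group came from separate cultures, so p-values measure the spread between these samples, which may be technical.

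Vehicle library 3 stood apart before any gene was compared. Its median rank correlation with the other vehicle libraries was 0.914, against 0.988 to 0.989 for those 3 libraries and 0.993 to 0.997 within TP-472. Its deviations from the mean profile correlated with the GC content of the genes (Spearman's rho 0.686 across genes, which are not independent), while in the other 7 libraries this value lay between −0.450 and −0.082. The same correlation with length lay between 0.044 and 0.319 in vehicle, highest in library 1, and between −0.283 and 0.032 after TP-472. Mitochondrial transcripts made up 0.285% to 0.424% of counts in vehicle and 0.199% to 0.282% after TP-472. Both measures thus differed between the groups, and their part in the values below was not tested. Results are given with all 8 libraries, and those of the 6 repair genes again without vehicle library 3. For the other genes and lists the value without it is given where it differs enough to bear on the reading.

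The labelled cell type was read from marker genes, as mean CPM (counts brought to 1 library size by the TMM method). The smooth muscle genes CALD1 and ACTA2 stood at 199.6 and 160.3 CPM in vehicle and at 191.6 and 109.4 CPM after TP-472, and the mesenchymal filament gene VIM at 2538 and 1908 CPM. The other mesenchymal markers, both collagen genes, fell past the threshold described below: COL1A2 went from 589.2 to 98.8 CPM (log2 fold change −2.58, SE 0.125, adjusted p 1.74e-05, edgeR) and COL1A1 from 9.19 to 1.80 CPM (−2.35, SE 0.649, adjusted p 0.0222; −1.46 without vehicle library 3). MYH11 and MYOCD, which define differentiated smooth muscle, averaged no more than 0.236 CPM in either group, and neither did the hormone receptor genes ESR1 and PGR. Of 7 smooth muscle markers, 5 could be tested, and 2 of them, TAGLN and DES, fell past the threshold, against 14.9% of all tested genes. DES averaged 3.25 CPM in vehicle and 0.629 CPM after TP-472. It entered the test through its vehicle libraries alone, since no TP-472 library reached 1 CPM. No conclusion is drawn from the place of DES in this count. CNN1 went the other way at 0.13 (adjusted p 0.696, edgeR), with means of 1.26 CPM in vehicle and 1.38 CPM after TP-472. MYH11, too low to test, had 0 to 1 counts per vehicle library and 7 to 10 per TP-472 library. ACTA2 had a log2 fold change of −0.55 (SE 0.103, adjusted p 0.0043), short of 1.5-fold, and without vehicle library 3 it passed at −0.59. The leukocyte genes PTPRC and CD3E and the endothelial genes CDH5, PECAM1 and VWF averaged no more than 0.203 CPM in either group, while CD68, listed as a leukocyte marker and also made by other cells, stood at 7.53 CPM in vehicle and 10.4 CPM after TP-472 (adjusted p 0.0307, under 1.5-fold). Of the epithelial markers, EPCAM and CDH1 averaged under 1 CPM and were not tested, KRT8 did not pass, KRT18 rose from 7.39 to 15.6 CPM (adjusted p 0.000726) and KRT19 fell from 8.88 to 4.93 CPM (adjusted p 0.0151). The part of these marker changes in the values of the repair genes was not tested. In bulk RNA, fewer cells of a kind and less RNA per cell cannot be told apart.

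Start regions of 4 of the genes are shown. PMS1 and PMS2 lie head to head with another gene, with 1 short stretch of DNA between the RefSeq starts. For MSH6 and EXO1 no gene of the other strand starts within 1000 bases of the RefSeq start. All 6 genes matched an entry among the RefSeq start regions of GRCh38.p14. Printed 5′ to 3′ on the strand of the repair gene are the bases between the start sites of PMS1 and ORMDL1 (chr2:189784340-189784449, plus strand) and of PMS2 and AIMP2 (chr7:6009107-6009271, minus strand). For MSH6 (chr2:47783025-47783144, plus strand) and EXO1 (chr1:241848084-241848203, plus strand) the 120 bases before the start site are printed. Capitals mark, on either strand, the letters CCAAT, the cyclic AMP response element TGACGTCA and 1 of 4 spellings of an E2F-type site (TTTGGCGC, TTTCGCGC, TTTCCCGC or TTTGCGCG). These spellings and stretches were chosen after the sequences had been read.
PMS1 and ORMDL1: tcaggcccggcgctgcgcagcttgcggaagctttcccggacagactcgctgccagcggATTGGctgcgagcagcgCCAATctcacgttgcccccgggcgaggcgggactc
PMS2 and AIMP2: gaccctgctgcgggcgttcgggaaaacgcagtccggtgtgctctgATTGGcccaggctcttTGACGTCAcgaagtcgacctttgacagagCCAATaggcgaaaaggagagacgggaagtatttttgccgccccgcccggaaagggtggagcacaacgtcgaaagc
MSH6: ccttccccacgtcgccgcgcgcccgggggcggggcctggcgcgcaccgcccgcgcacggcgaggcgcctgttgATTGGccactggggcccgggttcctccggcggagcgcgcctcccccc
EXO1: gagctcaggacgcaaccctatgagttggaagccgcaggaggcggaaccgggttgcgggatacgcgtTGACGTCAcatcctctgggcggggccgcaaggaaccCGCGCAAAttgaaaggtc

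The stretch between PMS1 and ORMDL1 holds 2 CCAAT boxes in opposite orientation, and the one between PMS2 and AIMP2 holds 2 CCAAT boxes around a TGACGTCA. In the 300-base window around each RefSeq start, CCAAT was found 3 times for PMS2, 2 times for PMS1, 1 time for MSH6 and 0 times for MLH3, MSH3 and EXO1, and 35.7% of all 27305 windows hold it. E2F-type letters were found 2 times each for MSH3 and EXO1 and 1 time for MSH6, against 3.20% of all windows with at least 1 match. TGACGTCA was found 1 time each for PMS2 and EXO1 (1.98% of all windows), and the GC box GGGCGG was found for all but MLH3 (44.6% of all windows). These matches describe letters only, and no binding was measured. Because spellings were chosen after the sequences had been read, setting the matches beside the shares of all windows is no test.

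MSH6 (ENSG00000116062.17, GRCh38 chromosome 2, 47695530 to 47810101, plus strand) is the mispair-recognising subunit. This GENCODE 29 span begins well before the RefSeq start site used for the sequence, at 47783145. It read 176.1, 200.2, 136.0 and 203.6 CPM in vehicle libraries 1 to 4 and 216.9, 216.1, 216.9 and 221.5 CPM in TP-472 libraries 1 to 4. All 4 TP-472 libraries lay above the highest vehicle library, and they lay within a few CPM of each other while the vehicle libraries were spread widely. The means were 179.0 ± 31.1 CPM in vehicle and 217.8 ± 2.47 CPM after TP-472 (SD, n = 4 each). On the log2 scale TP-472 exceeded vehicle by 0.28 (SE 0.135, 95% interval −0.021 to 0.588), with an adjusted p of 0.126 in edgeR's quasi-likelihood test. Leaving out vehicle library 3 gave 0.17 (95% interval 0.026 to 0.319), with an adjusted p of 0.0460.

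MSH3 (ENSG00000113318.11, chromosome 5, 80654648 to 80876460, plus strand), the subunit for larger loops, read 43.7, 37.9, 34.6 and 39.4 CPM in vehicle and 46.0, 44.3, 46.5 and 50.4 CPM after TP-472. Here too the groups did not overlap, although vehicle library 1 came close to TP-472 library 2. Mean levels were 38.9 ± 3.75 and 46.8 ± 2.58 CPM (SD, n = 4 each). The log2 fold change of 0.27 (SE 0.106, 95% interval 0.029 to 0.505) had an adjusted p of 0.0754 (edgeR), and 0.0283 at 0.21 without vehicle library 3.

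PMS2 (ENSG00000122512.16, chromosome 7, 5973239 to 6009125, minus strand) encodes the main nicking subunit of MutL. It read 60.3, 61.6, 72.3 and 61.2 CPM in vehicle and 54.9, 51.0, 53.1 and 51.9 CPM after TP-472. No TP-472 library reached the lowest vehicle value, and vehicle library 3 was the highest of all 8, where it had been the lowest for MSH6 and MSH3. The log2 fold change was −0.28 (SE 0.0979, 95% interval −0.497 to −0.055), with an adjusted p of 0.0532 (edgeR), so that it missed the significance limit narrowly. It was −0.21 with an adjusted p of 0.0080 without vehicle library 3.

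The genome carries several near copies of PMS2, among them PMS2CL and the PMS2P pseudogenes, and reads from shared exons can be credited to either. Of 11 such look-alikes listed, 6 were expressed enough to test and none passed the threshold (26.9% of all tested genes did). PMS2CL, the most abundant, read 18.8, 19.0, 25.4 and 17.5 CPM in vehicle and 24.3, 23.0, 25.2 and 25.3 CPM after TP-472, which is a log2 fold change of 0.28 (SE 0.136, adjusted p 0.136). Without vehicle library 3 it was 0.41 with an adjusted p of 0.000904 and no overlap between the groups, still under 1.5-fold. PMS2CL thus read opposite to PMS2 in both fits. With all 8 libraries, PMS2P3 (0.25) and PMS2P7 (0.05) also lay above 0. On the same side as PMS2 lay PMS2P4 (−0.47, adjusted p 0.0508, edgeR), PMS2P6 (−0.35, adjusted p 0.112) and PMS2P1 (−0.17, adjusted p 0.306). When the counts of PMS2 and all its look-alikes were summed, the log2 fold change shrank to −0.10 (SE 0.0996, adjusted p 0.446). The sum read 108.5, 106.7, 129.4 and 105.2 CPM in vehicle and 107.0, 102.5, 104.1 and 106.0 CPM after TP-472, so that the groups overlapped. Without vehicle library 3, a fit added after the values had been seen, the sum gave −0.03 (SE 0.0514, adjusted p 0.689). The value of PMS2 is uncertain to that extent.

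PMS1 (ENSG00000064933.18, chromosome 2, 189784085 to 189877629, plus strand) encodes the MutL subunit without nuclease activity. It read 46.1, 50.9, 26.9 and 49.9 CPM in vehicle and 34.9, 35.01, 36.8 and 36.2 CPM after TP-472. In 3 vehicle libraries it was well above all TP-472 libraries, and in vehicle library 3 below them all. The log2 fold change over all 8 libraries was −0.28 (SE 0.188, 95% interval −0.706 to 0.144; adjusted p 0.262, edgeR). Without vehicle library 3 it was −0.45 (95% interval −0.588 to −0.319) with an adjusted p of 0.000195, the largest difference among the 6 genes in that fit, and at 0.730 times the vehicle mean still short of a 1.5-fold fall. An adjustment of each library for the GC content of the genes, with all 8 libraries kept, gave −0.41 with an adjusted p of 0.0020.

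MLH3 (ENSG00000119684.15, chromosome 14, 75013764 to 75051532, minus strand), the subunit best known from meiosis, read 38.0, 40.7, 25.8 and 39.7 CPM in vehicle and 38.4, 35.3, 36.7 and 40.6 CPM after TP-472. The groups overlapped, with 2 TP-472 libraries inside the range of vehicle libraries 1, 2 and 4 and 2 below it. The log2 fold change was 0.07 (SE 0.152, 95% interval −0.275 to 0.410; adjusted p 0.745, edgeR) with all libraries and −0.06 (95% interval −0.212 to 0.087; adjusted p 0.444) without that library.

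EXO1 (ENSG00000174371.17, chromosome 1, 241847967 to 241895148, plus strand), the exonuclease, read 68.1, 75.5, 42.4 and 76.9 CPM in vehicle and 79.2, 83.4, 82.1 and 86.7 CPM after TP-472. The groups did not overlap, but vehicle libraries 2 and 4 lay close below the TP-472 range. Vehicle library 1 lay farther below it at 68.1 CPM, and vehicle library 3 was the lowest by far at 42.4 CPM. The log2 fold change was 0.33 (SE 0.177, 95% interval −0.067 to 0.735; adjusted p 0.164, edgeR). It dropped to 0.17 (95% interval 0.029 to 0.317; adjusted p 0.0428) without vehicle library 3.

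**Figure D1:**
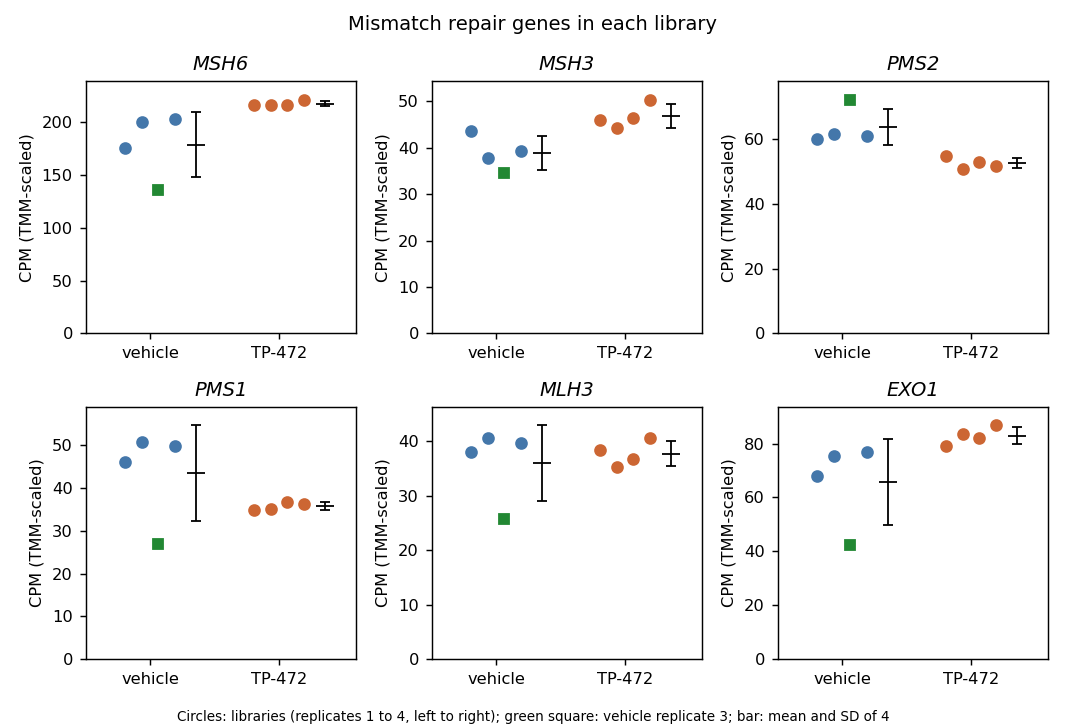
CPM (y axis, TMM-scaled, from 0) of the 6 mismatch repair genes in each vehicle and TP-472 library, with mean and SD of 4 beside the points. Vehicle library 3, the green square, is the lowest of all 8 libraries for every gene but PMS2, for which it is the highest at 72.3 CPM.

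Taking the genes as a group, 0 of 6 passed the threshold, an adjusted p under 0.05 together with a change of more than 1.5-fold, against 26.9% of the 14073 genes tested (12.0% higher and 14.9% lower). By adjusted p alone the count was also 0 of 6, against 36.3% of all tested genes; 2 of 6, MSH3 and PMS2, had an unadjusted p under 0.05, against 47.8% of all tested genes. The 2 groups of libraries did not overlap for 4 of 6, against 45.4% of all tested genes. Without vehicle library 3, 5 of 6 had an adjusted p under 0.05 and did not overlap (background 57.0% and 58.5%), and still 0 of 6 exceeded 1.5-fold (background 25.5%). DESeq2 likewise placed 0 of 6 past the threshold (background 24.1%) and PMS2 alone under 0.05 by adjusted p, at 0.0270 (1 of 6, background 30.3%). With offsets for GC content 0 of 6 passed (background 28.1%) and 2 of 6, PMS1 and PMS2, had an adjusted p under 0.05 in edgeR (background 52.3%). These offsets lowered the log2 fold changes of MSH3 to 0.11 (adjusted p 0.294), MSH6 to 0.14 (adjusted p 0.0895) and EXO1 to 0.22 (adjusted p 0.0635), and gave −0.36 for PMS2 (adjusted p 0.0161). With limma-voom and quality weights 0 of 6 passed (background 24.8%) and 4 of 6, all but MLH3 and EXO1, had an adjusted p under 0.05 (background 68.3%). The median log2 fold change of the 6 was 0.17, beside −0.026 for all tested genes. It was 0.055 without vehicle library 3, beside −2.14e-05 for all tested genes.

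**Figure D2:**
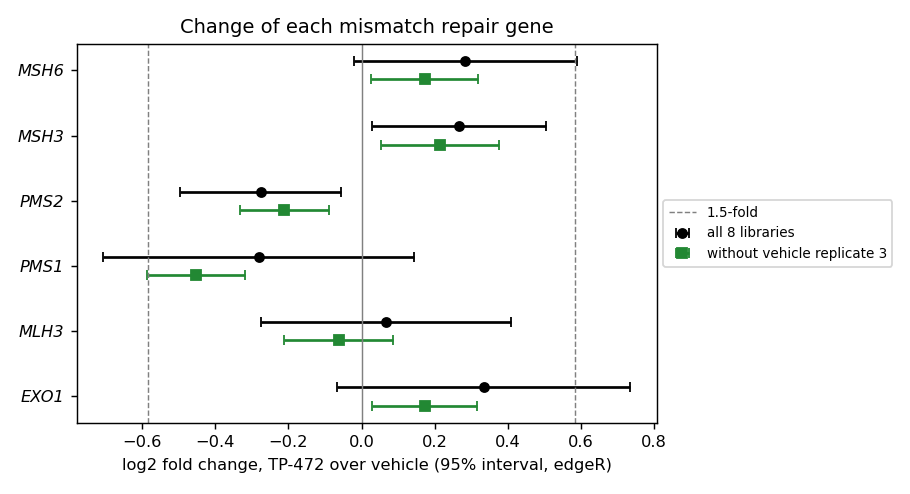
Log2 fold change (x axis, TP-472 over vehicle) with its 95% interval in edgeR for each gene (y axis), with all 8 libraries in black and without vehicle replicate 3 in green; dashed lines mark 1.5-fold. All 12 estimates lie inside the dashed lines, and the green intervals are the shorter ones for all 6 genes, with −0.45 for PMS1 the farthest from 0.

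Levels of different genes can be set side by side once divided by transcript length. In CPM per kilobase of the principal transcript in vehicle, MSH6 stood highest at 23.9 ± 4.17, followed by PMS2 at 22.4 ± 1.99, EXO1 at 18.9 ± 4.62, PMS1 at 13.5 ± 3.48, MSH3 at 9.50 ± 0.917 and MLH3 at 4.56 ± 0.874 (SD, n = 4). MSH6 and PMS2, and likewise PMS2 and EXO1, differ by less than 1 SD of the wider one, and MLH3 was the lowest by more than the spread. After TP-472 the order was MSH6 at 29.1 ± 0.330, EXO1 at 23.9 ± 0.897, PMS2 at 18.5 ± 0.593, MSH3 at 11.4 ± 0.629, PMS1 at 11.1 ± 0.290 and MLH3 at 4.78 ± 0.290 (SD, n = 4). EXO1 and PMS2 thus changed places, but in vehicle libraries 2 and 4 EXO1 (21.7 and 22.1) already stood above PMS2 (21.6 and 21.4), and the widest gap the other way was in library 3 (12.2 against 25.3). MSH3 and PMS1 also changed places and after TP-472 differed by less than their spread. The transcript for MLH3 is 7896 bases long and that for PMS2 is 2855, so these levels depend on the transcript chosen.

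Because the MutS subunits compete for one partner and the MutL subunits for another, 5 ratios were formed within each library, where no scaling between libraries enters. With 4 libraries against 4, the smallest p that an exact two-sided permutation test can give is 0.0286. The log2 ratio of MSH3 to MSH6 averaged −2.19 ± 0.228 in vehicle and −2.22 ± 0.0627 after TP-472 (SD, n = 4), a difference of −0.031 (exact permutation p 0.8, 1.0 after Benjamini-Hochberg adjustment over the 5 ratios). No shift in the balance of the MutS subunits was detectable against the spread of the vehicle libraries.

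Between the MutL subunits, the log2 ratio of MLH3 to PMS1 was −0.28, −0.32, −0.06 and −0.33 in vehicle and 0.14, 0.012, −0.0044 and 0.16 after TP-472. The groups did not overlap, with a difference of 0.33 (exact permutation p 0.0286, adjusted 0.0714) that became 0.39 without vehicle library 3. For MLH3 to PMS2 the ratio was −0.67, −0.60, −1.49 and −0.63 in vehicle and −0.51, −0.53, −0.53 and −0.35 after TP-472. That difference of 0.36 (exact permutation p 0.0286, adjusted 0.0714) was carried largely by vehicle library 3 and was 0.15 without it, again with no overlap. The ratio of PMS1 to PMS2 differed by 0.036 with all libraries (exact permutation p 1.0) and by −0.24 without vehicle library 3 (exact permutation p 0.0571, the smallest that 3 against 4 allows), so its sign rests on that library. EXO1 to MSH6 differed by 0.071 (exact permutation p 0.457, adjusted 0.762) and by −0.0012 without vehicle library 3. No ratio passed 0.05 after adjustment. MLH3 to PMS1 and MLH3 to PMS2 stood at the smallest permutation p, 0.0286, which became 0.0714 after adjustment. With the permutation p of the other ratios at 0.457 or more, the adjusted value of these 2 could not have been lower.

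**Figure D3:**
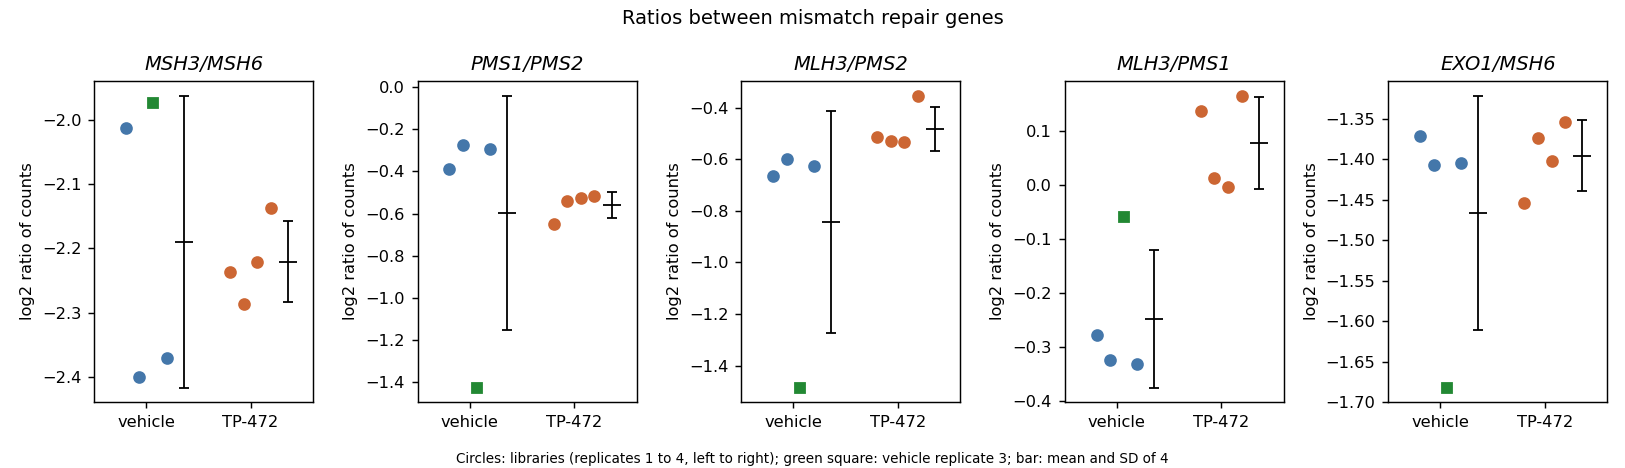
Log2 ratio of counts (y axis, separate scales that do not start at 0) between pairs of mismatch repair genes in each library, with mean and SD of 4. For MLH3 over PMS1 and MLH3 over PMS2 the groups do not overlap, and vehicle library 3 sits far below the other libraries at −1.43 for PMS1 over PMS2 and at −1.49 for MLH3 over PMS2.

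PMS1 and PMS2 each have a gene on the opposite strand that starts within 1000 bases of their own start. In the GENCODE 29 annotation the starts lie 286 bases apart for PMS1 and ORMDL1 and 120 bases for PMS2 and AIMP2. PMS1 and ORMDL1 overlap over those bases on opposite strands, and since it is not stated whether the counting used strand, reads from there cannot be assigned with certainty to either gene. None was found for MSH6, MLH3 or EXO1, neither at the GENCODE 29 start nor at the RefSeq start, and the start of MSH3 was not analysed here for neighbours. ORMDL1, a regulator of sphingolipid synthesis, read 39.7, 46.5, 17.1 and 44.5 CPM in vehicle and 49.6, 52.1, 54.1 and 51.1 CPM after TP-472 (log2 fold change 0.49, SE 0.269, adjusted p 0.180, edgeR). Without vehicle library 3, its lowest, the value was 0.25 with an adjusted p of 0.0125. AIMP2, a scaffold of the multi-tRNA synthetase complex, read 31.2, 34.9, 26.4 and 36.4 CPM in vehicle and 41.2, 46.0, 45.3 and 38.0 CPM after TP-472 (log2 fold change 0.40, SE 0.130, adjusted p 0.0386). Both neighbours therefore read higher after TP-472 in all 4 libraries while the repair gene on the other side read lower, outside vehicle library 3 for PMS1. Opposite signs are common in such pairs: 41.9% of the 966 head-to-head pairs of tested protein-coding genes had them.

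Within each library the log2 ratio of PMS1 to ORMDL1 was 0.21, 0.13, 0.66 and 0.16 in vehicle and −0.51, −0.57, −0.55 and −0.50 after TP-472, a difference in means of −0.82, or −0.70 without vehicle library 3. The ratio of PMS2 to AIMP2 was 0.95, 0.82, 1.46 and 0.75 in vehicle and 0.41, 0.15, 0.23 and 0.45 after TP-472, a difference of −0.68, or −0.53 without vehicle library 3. In both pairs the groups were separate, with or without that library. This comparison was chosen after the values had been seen and carries no test. Among all 966 head-to-head pairs of tested protein-coding genes, 52.5% also had ratios that did not overlap between the groups, and 26.8% and 34.6% differed in log2 fold change by at least as much as these 2 pairs, so neither pair was unusual. Without vehicle library 3 these shares were 61.5%, 25.4% and 38.1%.

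**Figure D4:**
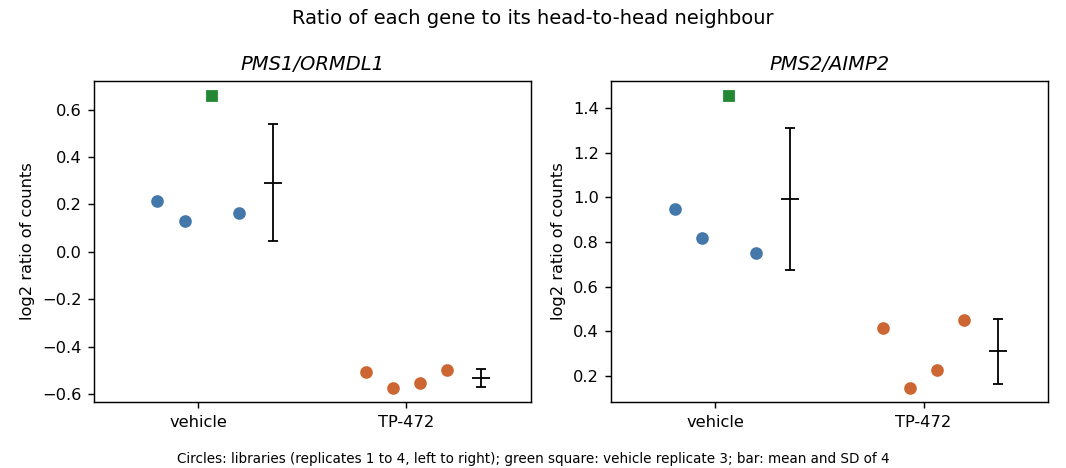
Log2 ratio of counts (y axis, separate scales that do not start at 0) of PMS1 and PMS2 to the gene that starts head to head with each, per library, with mean and SD of 4. PMS1 over ORMDL1 lies above 0 in all 4 vehicle libraries and below 0 in all 4 TP-472 libraries, and PMS2 over AIMP2 lies between 0.75 and 1.46 in vehicle and between 0.15 and 0.45 after TP-472.

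The 6 genes fell into different profiles across the 8 libraries. Likeness was taken as the root-mean-square difference of centred log2 CPM, against the 11077 tested genes whose mean reached 5 CPM. MSH6 and EXO1 were closest to each other, at 0.099, and PMS2 and EXO1 were farthest apart, at 0.458. Nearest to MSH6 was NUP43, a nuclear pore gene, at 0.017, and XRCC5, a subunit of the Ku end-joining complex, was among its 3 nearest at 0.034. EXO1 was nearest to ZFR at 0.033 and next to CHEK1, the DNA damage checkpoint kinase, at 0.034. PMS1 was nearest to MBOAT2 at 0.022, MLH3 to WAC at 0.031, MSH3 to CIPC at 0.033 and PMS2 to RCC2 at 0.030. With 8 libraries of which 1 stands apart, such likeness describes these libraries only.

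The genes that complete the repair were measured alongside. Of 14 resynthesis partners (PCNA, the RFC, RPA and polymerase delta subunits and LIG1), 1 rose past the threshold and 0 fell, against 12.0% and 14.9% of all tested genes, with a median log2 fold change of 0.061, which turned to −0.022 without vehicle library 3. The gene that rose was RPA2, the middle subunit of the single-strand binding complex, at 49.2, 59.9, 38.0 and 59.5 CPM in vehicle and 86.6, 95.3, 95.03 and 82.2 CPM after TP-472. Its log2 fold change was 0.80 (SE 0.154, adjusted p 0.00488, edgeR), and 0.68 without vehicle library 3. RPA1, the large subunit of the same complex, went the other way at −0.32 (SE 0.0932, adjusted p 0.0281), short of 1.5-fold. The clamp gene PCNA read 0.47 (SE 0.246, adjusted p 0.160), and 0.25 (adjusted p 0.0567) without vehicle library 3, in which it stood at 120.1 CPM against 220.0 CPM or more in the other vehicle libraries.

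LIG1, the replicative ligase, and POLD1, the catalytic subunit of polymerase delta, had log2 fold changes of −0.73 (SE 0.260, adjusted p 0.0546, edgeR) and −0.59 (SE 0.223, adjusted p 0.0649). Vehicle library 3 was far above the other vehicle libraries for both, at 142.5 CPM for LIG1 (the others 64.1 to 67.3) and 148.9 CPM for POLD1 (77.1 to 77.7). Without it the values were −0.35 (adjusted p 0.0013) and −0.29 (adjusted p 0.0070), both short of 1.5-fold.

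Among 7 factors associated with the pathway (MSH4, MSH5, MCM8, MCM9, FAN1, SETD2 and HMGB1), 1 rose and 1 fell, near the 12.0% and 14.9% of all tested genes, with a median log2 fold change of 0.19 (0.091 without vehicle library 3). These were the 2 meiotic MutS homologues, which pair with each other and take no part in mispair correction. MSH4 read 0.5, 0.7, 0.9 and 0.4 CPM in vehicle and 2.2, 2.1, 2.4 and 2.2 CPM after TP-472. The log2 fold change of 1.83 rests on 13 to 32 counts per vehicle library and 76 to 86 per TP-472 library. MSH4 entered the test through its TP-472 libraries alone, since no vehicle library reached 1 CPM. Its p-value is therefore not given, and no conclusion is drawn from its place in the count of genes that rose. MSH5 fell from 37.2, 30.0, 64.1 and 31.6 CPM to 22.1, 19.2, 22.1 and 19.9 CPM, a log2 fold change of −0.97 (SE 0.235, adjusted p 0.0133, edgeR). Without vehicle library 3 it was −0.66 (adjusted p 0.000261). MSH5 shares exons with the readthrough gene MSH5-SAPCD1, looked up after the value of MSH5 had been seen, which fell by 1.02 on the log2 scale (SE 0.200, adjusted p 0.00531), so the share of each is uncertain.

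Of the 3 nucleases related to EXO1 (FEN1, GEN1 and ERCC5), none passed the threshold, against 26.9% of all tested genes. FEN1, which trims flaps in Okazaki fragment maturation, came nearest at 0.51 (SE 0.136, adjusted p 0.0199, edgeR). The 11 base excision glycosylases, which start the repair of single damaged bases, held 1 gene that rose and 1 that fell, against 12.0% and 14.9% of all tested genes, around a median of −0.11 (−0.056 without vehicle library 3). NEIL2 rose from 11.6, 12.4, 13.6 and 13.5 CPM to 21.1, 20.4, 23.3 and 19.5 CPM (0.72, SE 0.114, adjusted p 0.0020). NEIL1, which removes oxidised bases as NEIL2 does, fell from 4.7, 4.7, 9.8 and 4.5 CPM to 1.7, 2.0, 1.5 and 1.5 CPM (−1.81, SE 0.285, adjusted p 0.0019). Log2 fold changes for the uracil and thymine glycosylases UNG and TDG were 0.38 (SE 0.0998, adjusted p 0.0172) and 0.55 (SE 0.145, adjusted p 0.0187), both under 1.5-fold.

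Of 21 genes expressed in S phase, when mismatch repair is most needed, 2 rose past the threshold and 0 fell, against 12.0% and 14.9% of all tested genes, with a median log2 fold change of 0.039 (0.061 without vehicle library 3). CDC6, which loads the replicative helicase, rose from 44.7, 52.4, 40.1 and 54.7 CPM to 83.9, 86.0, 87.7 and 82.6 CPM (0.83, SE 0.118, adjusted p 0.0012, edgeR). CCNE1, the cyclin of S-phase entry, rose from 22.2, 25.1, 21.0 and 28.0 CPM to 36.4, 39.5, 39.1 and 36.0 CPM (0.65, SE 0.119, adjusted p 0.0039). By adjusted p alone 6 of 21 were under 0.05, against 36.3% of all tested genes, and all 6 read higher. Besides CDC6 and CCNE1 these were GINS3 (0.55), GINS4 (0.49), GINS2 (0.48) and RRM2 (0.41). CCNE2 at 0.68 (adjusted p 0.0761, edgeR) and CDT1 at −0.76 (adjusted p 0.147) were not among them. The helicase genes MCM2 to MCM7 lay between −0.15 and 0.28, and none had an adjusted p under 0.05 with all 8 libraries. Without vehicle library 3 MCM7 did, at 0.27 (adjusted p 0.0202), and the lowest of them was MCM4 at −0.014. Whether these changes had a part in the values of the repair genes was not tested.

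**Figure D5:**
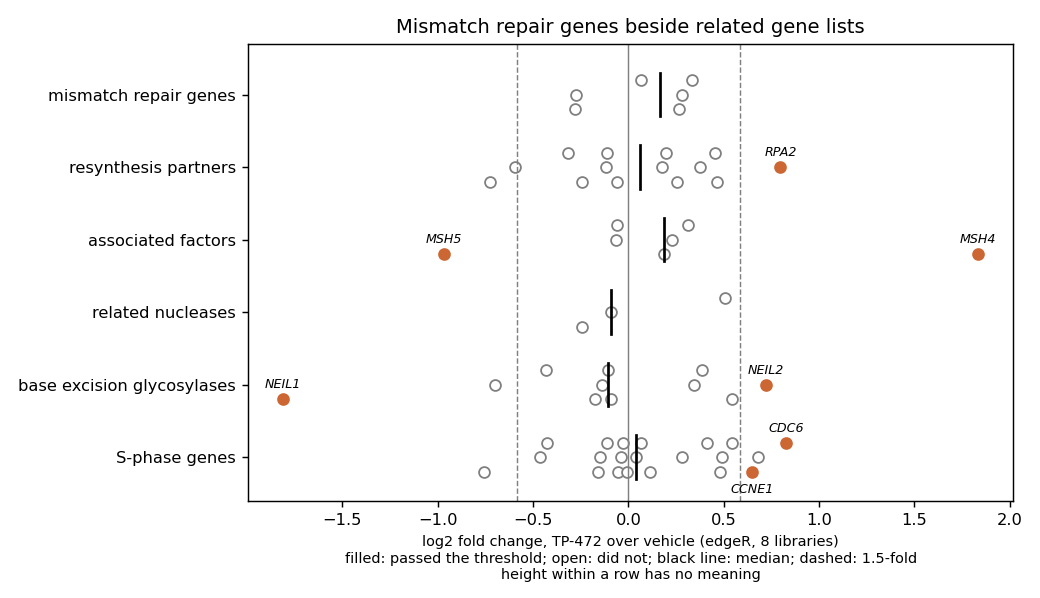
Log2 fold change (x axis, TP-472 over vehicle, edgeR) of each tested gene in 6 lists (y axis), with the median of each list as a black bar, 1.5-fold as dashed lines and genes past the threshold filled and named. All 6 mismatch repair genes lie between the dashed lines, while MSH4 at 1.83 and NEIL1 at −1.81 lie farthest out in the other lists. MSH4 entered the test through its TP-472 libraries alone.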

How the data were processed

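SK-UT-1 RNA was measured in 4 libraries per group (5 µM TP-472 or DMSO, 48 h). The authors prepared strand-specific libraries, mapped reads to the transcriptome with Salmon 1.4.0 (per the submitters' processing notes, build GRCh38) and summed transcripts to genes with tximport. The values deposited by the authors are estimated counts, neither normalized nor filtered; 13.8% to 23.2% of a library's values had a fractional part. Whether the counting used strand is not given in the sources used here.

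Counts were rounded and scaled by TMM. Kept were 14073 genes above 1 CPM in 4 or more of the 8 libraries. The test was edgeR's quasi-likelihood F test (edgeR 4.0.16, R 4.3.3), with Benjamini-Hochberg adjustment over all of them. The threshold was an adjusted p under 0.05 and a change over 1.5-fold. The standard error is the size of the log2 fold change divided by the square root of F. Ratios of genes were compared by exact two-sided permutation tests (scipy 1.17.1).

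The 6 genes, the lists and the rule for naming genes (all 6, list genes with those past the threshold first, and the nearest profiles) were chosen with earlier results of these data known. Alternatives were DESeq2 1.42.0, limma-voom (limma 3.58.1) with and without quality weights, other scalings and filters, protein-coding genes only, unrounded counts, a replicate block, offsets for GC content (known for 99.3% of tested genes), no fold limit, other pseudocounts and each library left out, with the same genes kept. Positions are from GENCODE 29 on GRCh38, sequences from RefSeq. Tested on simulated data for this comparison (14073 genes), the fit called 98 of 100 genes changed 4-fold, 53 of 100 changed 2-fold and 7 of 13873 unchanged ones. The simulated counts held no library that stood apart and no trend with GC content or length. These figures therefore do not cover those features of the real libraries. The lowest mean chi-square between libraries of a group was 12.8, where copies would be near 1. Some related genes are not reported here.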

Additional observations from a re-analysis of the deposited data

Results flagged for a closer look

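In 11 of 58 groups of 4 libraries examined, 1 library lay so far from the other 3 that its gap exceeded Dixon's 95% critical value, where chance gives about 1 in 20. In 7 of these the far library was vehicle library 3. It read 72.3 CPM for PMS2 (the others 60.3 to 61.6), 142.5 CPM for LIG1 (64.1 to 67.3), 148.9 CPM for POLD1 (77.1 to 77.7) and 9.76 CPM for NEIL1 (4.50 to 4.74). Its log2 ratios were −1.43 for PMS1 to PMS2 (the others −0.39 to −0.28), −1.49 for MLH3 to PMS2 (−0.67 to −0.60) and −1.68 for EXO1 to MSH6 (−1.41 to −1.37).

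In the other 4 the far library was a TP-472 library. Library 4 read 221.5 CPM for MSH6 (the others 216.1 to 216.9), 55.3 CPM for POLD1 (65.2 to 66.6) and a log2 ratio of −0.35 for MLH3 to PMS2 (−0.53 to −0.51), and library 3 read 2.39 CPM for MSH4 (2.14 to 2.17).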

How the results depend on the processing

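The 6 repair genes gave 0 past the threshold in all 21 alternatives run on each, and MSH6, MSH3, EXO1, PMS1 and PMS2 kept their sign in each. MLH3 reversed to −0.10 with quality weights, −0.068 with GC offsets and −0.068 with the block and GC offsets together. With 1 library left out, MLH3 ranged from −0.063 to 0.13, MSH3 to MSH6 from −0.10 to 0.041, PMS1 to PMS2 from −0.24 to 0.14 and EXO1 to MSH6 from −0.0012 to 0.10. Quality weights gave an adjusted p under 0.05 for MSH3, MSH6, PMS1 and PMS2 (68.3% of all tested genes), and GC offsets for PMS1 and PMS2 (52.3%). The cause of these shifts was not tested.

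Few list counts moved. Resynthesis partners lower went from 0 to 1 with DESeq2, no filter, filterByExpr and no fold limit, and ranged from 0 to 1 with 1 library left out. Base excision glycosylases lower went from 1 to 2 with DESeq2 and no filter and to 0 with a 5 CPM filter; higher, they went from 1 to 3 with no fold limit and ranged from 1 to 2 with 1 library left out. S-phase genes higher went from 2 to 1 with quality weights, to 3 with the block and GC offsets and to 6 with no fold limit. Associated factors higher went from 1 to 0 with a 5 CPM filter, which drops MSH4. Nucleases higher went from 0 to 1 with the block and GC offsets and with no fold limit, and promoter neighbours higher from 0 to 1 with no fold limit.

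Over all genes, 3789 passed, 2690 to 4223 with 1 library left out. The deviations of libraries with the same replicate number correlated at −0.055, 0.12, −0.17 and −0.18. For libraries with different numbers the lowest value was −0.30 (vehicle library 1 with TP-472 library 2). The highest was 0.40 (vehicle library 1 with TP-472 library 4). Because the values for the same number lie inside that range, they cannot decide whether such libraries were paired. The replicate block left 3055 genes past the threshold, none of them a repair gene, and gave −0.24 for PMS1 (adjusted p 0.385, edgeR) and −0.27 for PMS2 (adjusted p 0.156). With the block and GC offsets together the values were −0.40 for PMS1 (adjusted p 0.0178, edgeR) and −0.35 for PMS2 (adjusted p 0.0351), both short of 1.5-fold.

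The lowest value of any repair gene was 25.8 CPM. The 95% intervals of MSH6, PMS1 and EXO1 reach past 1.5-fold with all libraries, and those of MSH6 and EXO1 do not without vehicle library 3.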
